A study of Rattus norvegicus with 6 samples.

Results

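Collagens, laminins, nidogens and integrins are the proteins through which epithelial cells build a basement membrane and hold on to it. The genes described here are those whose single platform symbol names a collagen chain, a laminin alpha, beta or gamma chain, nidogen 1 or 2, or an integrin alpha or beta subunit. By that rule 52 of the 10411 genes on the array were members, with 71 probe sets: 29 collagen genes, 8 laminin genes, both nidogen genes and 13 integrin genes. Each gene was followed by its brightest probe set, the one with the highest mean log2 signal over all arrays, and other probe sets of the gene were checked against it.

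The cells were epithelial cells of fetal rat lung at embryonic day 19, labelled as type II cells, the cells that make surfactant. They came from pregnant CD rats according to the labels of 5 of the 6 samples, which also give both sexes, and were kept in serum-free medium on silastic membranes coated with collagen 1. The 3 strained cultures were stretched for 16 h, and each hour consisted of 15 min of cyclic stretch (5%, 60 cycles per min) and 45 min held at a constant 2.5% distension. The 3 control cultures lay unstretched on the same collagen-coated membranes for the same 16 h, and each control was paired with a strained culture from the same litter, with another litter for each pair.

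In a basement membrane, laminin trimers polymerise at the cell surface and collagen IV forms a second network, with nidogens bridging between them. Fibrillar collagens such as types I, III and V form the fibres of the interstitium and are mainly products of mesenchymal cells. Integrins are heterodimers of an alpha and a beta subunit that bind these proteins and couple them to the actin cytoskeleton, and they are among the receptors through which stretch is sensed.

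Every array gave MAS5 signals, a linear intensity scaled to a common trimmed mean, with array medians from 161.7 to 199.0. Of 13 listed type II and general epithelial marker genes on the array, 12 passed the filter on dim probe sets, which corresponds to a mean signal of about 116.2. The epithelial adhesion gene Epcam, the lung epithelial factor Nkx2-1 and the surfactant protein gene Sftpc had mean control signals of 11636, 4553 and 1232, while the surfactant protein gene Sftpa1 stayed under the filter. The listed type II genes Sftpb, Sftpd, Abca3, Slc34a2 and Lpcat1 ran from 414 (Slc34a2) to 1891 (Sftpd). All 5 type I cell markers passed the filter. Pdpn, Ager and Hopx were bright, with 9283, 5426 and 2010, and Aqp5 and Cav1 had 739 and 284. Of 10 fibroblast markers that are not themselves members, 8 lay under the filter, and Postn was under 20 on every array. Of 9 smooth muscle and myofibroblast markers 8 passed the filter. Tagln, Acta2 and Myl9 were bright, with mean control signals of 13769, 5460.1 and 2049, and the others had means from 97.7 (Myh11, under the filter) to 446 (Tpm2).

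No member passed the test of strain against control. The numbers below are log2 differences of signal + 16, strained minus control within litters, fitted with limma, so that -1 would be a halving of a bright signal. Of the 52 members, 32 passed the filter and were tested, and 0 of them reached an adjusted p of 0.05, where 0.349% of all 7163 tested genes did (0.0279% lower and 0.321% higher under strain). By probe set the share called was 0.326% of 9519. The lowest adjusted p of a member was 0.173, for Col1a2. The mean difference was below 0 for 20 of the 32 members, where it was for 53% of tested genes. At an unadjusted p of 0.05, 8 members were lower under strain, against a background of 4.73% of tested genes, and 0 were higher, against 4.84%. The 8 were Col1a2, Col5a2, Col6a3, Col12a1, Col4a5, Lama3, Lama5 and Lamc1. With other settings of the fit the count in either direction ran from 0 to 10. Lower values in all 3 pairs were found for 11 of the 32 members, where 16.2% of tested genes had them. Higher values in all 3 pairs were found for 4, where 14.3% of tested genes had them. Only Col1a2 was lower by at least 1.5-fold, where 0.824% of tested genes were.

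**Figure D1:**
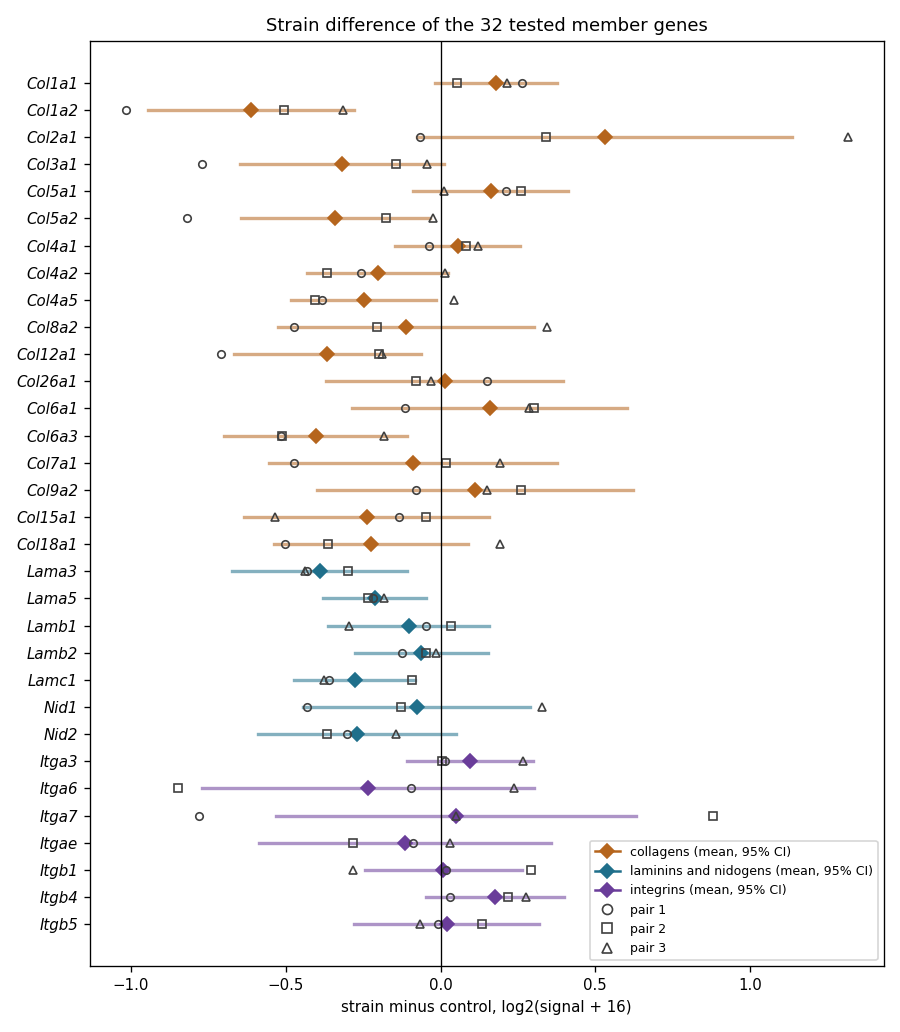
Strain minus control difference in log2(signal + 16) (x axis) of each of the 32 tested members (y axis), as the fitted mean over 3 litter pairs with its 95% confidence interval (coloured diamond and bar) and the difference in each pair (open symbols). All 7 laminin and nidogen genes have means below 0, integrin means scatter about 0, and several collagens have their most negative value in pair 1.

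Laminin alpha chains carry the domains that bind integrins. Lama3, a chain of epithelial laminins that anchor cells through hemidesmosomes, had signals of 775, 738 and 925 in control cultures 1 to 3 and of 571, 597 and 678 in the strained cultures of the same litters. All 3 strained values lay below all 3 control values, which held for 2 of the 32 members and for 3.18% of all tested genes. The difference was -0.39 ± 0.13 (SE, n = 3 pairs), or 0.76 times the control, with differences of -0.43, -0.30 and -0.44 in pairs 1, 2 and 3 (limma adjusted p = 0.345). Lama5, the alpha chain found in most epithelial basement membranes, was the brightest laminin probe set, with 6679, 8293 and 6565 in controls and 5743, 7044 and 5780 under strain. The groups overlapped because litter 2 was high in both, but within litters the step was nearly constant at -0.22, -0.24 and -0.18, with a mean of -0.21 ± 0.08 (adjusted p = 0.387).

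Lamc1, the gamma chain shared by most laminins, had signals of 5239.5, 5653 and 6919 in controls and 4075, 5299 and 5328 under strain. Each strained culture was below its own control, and the groups overlapped. Its difference was -0.28 ± 0.09 (adjusted p = 0.325), and its second probe set gave -0.18 ± 0.13, with 0.15 in pair 3. The beta chain genes Lamb1 and Lamb2, the partners of these chains in the trimers, had smaller differences. Lamb1 differed by -0.10 ± 0.12, with a 95% interval from -0.36 to 0.16, and Lamb2 by -0.06 ± 0.10, with an interval from -0.28 to 0.15. The remaining alpha chain genes Lama1, Lama2 and Lama4 lay under the filter. Lama4, a chain typical of vessels and mesenchyme, was at 97.1, 125 and 210 in controls and at 61.4, 91.0 and 144 under strain, lower in each pair on a dim probe set that was not tested.

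Because Lama5 and Lamc1, a pair of laminin chains with lower values in each litter, have entries in the RefSeq promoter table (GRCr8), the 250 bases before each start site are shown. Capitals mark GGGCGG, the GC box read by factors of the SP1 family, and in Lamc1 also GGAATG, the core read by TEAD factors, each searched on both strands.
Lama5, chr3:187695975-187696224, minus strand: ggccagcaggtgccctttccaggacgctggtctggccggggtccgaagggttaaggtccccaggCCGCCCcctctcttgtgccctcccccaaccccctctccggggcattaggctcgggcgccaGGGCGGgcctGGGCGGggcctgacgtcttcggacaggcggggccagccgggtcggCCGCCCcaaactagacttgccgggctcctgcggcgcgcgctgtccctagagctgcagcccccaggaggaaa
Lamc1, chr13:68051987-68052236, minus strand: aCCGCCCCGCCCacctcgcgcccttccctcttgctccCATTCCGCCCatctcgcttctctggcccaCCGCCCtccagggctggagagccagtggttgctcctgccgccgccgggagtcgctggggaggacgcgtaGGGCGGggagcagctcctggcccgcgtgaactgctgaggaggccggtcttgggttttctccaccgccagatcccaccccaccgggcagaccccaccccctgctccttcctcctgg
The Lama5 window held 4 GC boxes and the Lamc1 window 5, of which one overlaps the single GGAATG. Among windows of the same length before 18999 protein-coding genes, 40.3% held a GC box and 10.8% a GGAATG. Of the 40 members with an entry, 20 held a GC box (50%) and 5 a GGAATG (12.5%), namely Lamc1, Nid1, Itga3, Itgb1 and Col11a2. The AP-1 motif TGANTCA was present in 5.82% of all windows and in 2 of the 40 members, Lama3 and Col6a1. These are matches of letters, and no binding was measured.

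Nidogens connect the laminin and collagen IV networks. Nid2 had one of the tightest groups of the set, with 475, 453 and 445 in controls and 382, 348 and 401 under strain. All strained values were below all control values, and the difference was -0.27 ± 0.14 (adjusted p = 0.635). Nid1 depended on the probe set. The brightest one gave 650, 470 and 383 in controls and 478, 429 and 485 under strain, a difference of -0.08 ± 0.17 with the opposite sign in pair 3. The other had 399, 479 and 935 in controls and 206, 369 and 706 under strain, lower in each pair, with -0.55 ± 0.16 (adjusted p = 0.266). On that probe set the mean of pair 3 exceeded that of pair 1 by 1.45 on the log2 scale.

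**Figure D2:**
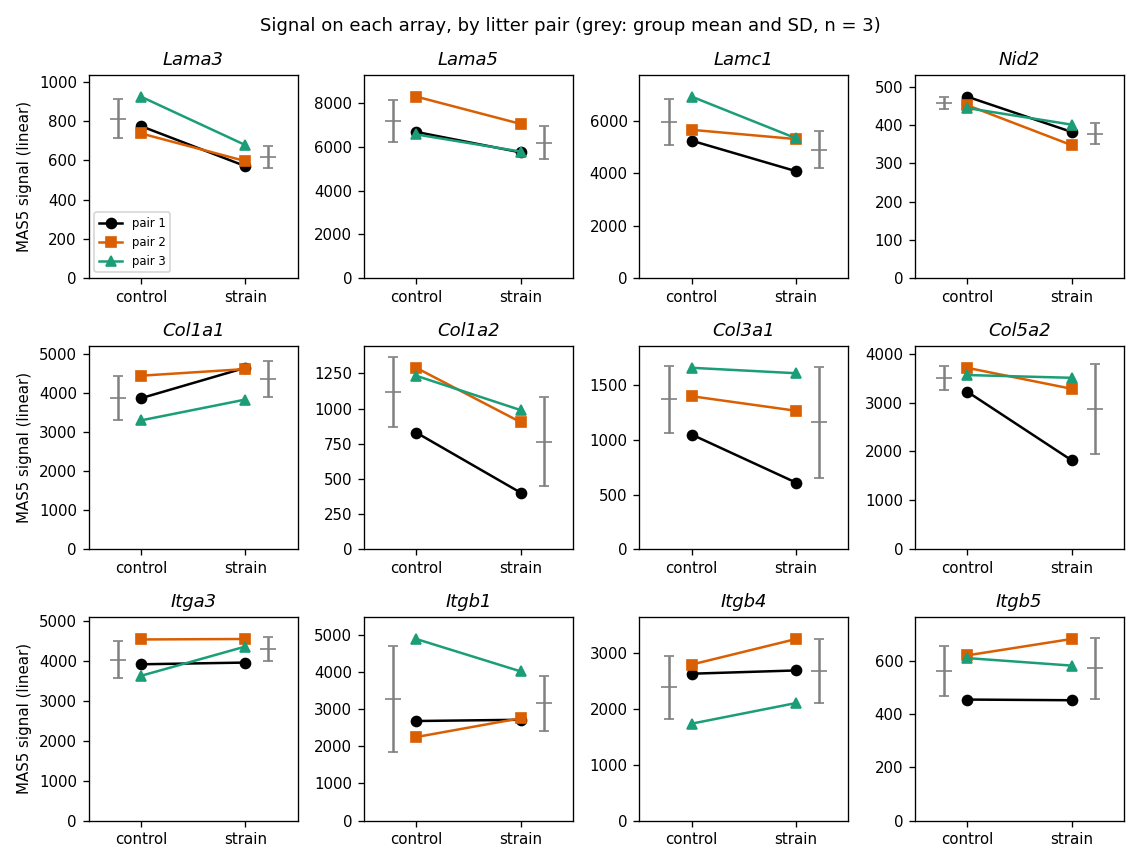
MAS5 signal (y axis, linear, from 0) on each array for 12 members in control and strained cultures (x axis), with a line for each litter pair and the group mean ± SD (n = 3) in grey. Lama3 and Nid2 show strained cultures below all controls, Col1a2 is lower at the strained end of each line and Col1a1 is higher, and Itga3 and Itgb4 are higher in each pair while the pairs of Itgb1 and Itgb5 differ in direction.

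As a family, the 7 tested laminin and nidogen genes had a median difference of -0.21, beside -0.01 over all tested genes. All 7 were negative in pair 1, 6 in pair 2 and 6 in pair 3, with medians of -0.30, -0.13 and -0.18. Within the second run day, which holds pairs 2 and 3, the median was also -0.21, and it lay between -0.23 and -0.20 with any litter left out. Lower values in all 3 pairs were found for 5 of the 7, namely Lama3, Lama5, Lamb2, Lamc1 and Nid2, beside 16.2% of all tested genes. The mean difference was below 0 for all 7, beside 53% of all tested genes. Lama1, Lama2 and Lama4, under the filter, are not in these counts.

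Collagen IV is the sheet-forming collagen of basement membranes. Col4a1 and Col4a2 encode the chains of its most common trimer and are next to each other on the chromosome, transcribed in opposite directions from start sites that lie 76 bases apart. Because both genes share this stretch, it is shown on the strand of Col4a1, from GRCr8, with the one match to the GC box in capitals.
Col4a2 to Col4a1, chr16:84885521-84885596, plus strand: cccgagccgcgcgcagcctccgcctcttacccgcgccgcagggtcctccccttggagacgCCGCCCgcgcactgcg
Of windows of this length directly before protein-coding start sites, 24.6% held a GC box. Both genes had high signals. Col4a1 had 3746, 3242 and 2783 in controls and 3649, 3436 and 3025 under strain, and Col4a2 had 3444, 3920 and 2650.4 in controls and 2881, 3034.5 and 2679.5 under strain. Neither gene separated the groups. The Col4a1 difference was 0.06 ± 0.09 with a 95% interval from -0.15 to 0.26, and its other probe set gave -0.17 ± 0.10. Col4a2 was at -0.20 ± 0.10 (adjusted p = 0.604), with -0.26 and -0.37 in pairs 1 and 2 and 0.02 in pair 3.

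Col4a5, a chain of the collagen IV network of glomeruli and lung, had the least litter-to-litter variation of all tested members, with pair means within 0.08 of each other on the log2 scale. Its signals were 4295, 4246 and 3848 in controls and 3293, 3198 and 3966 under strain. Litters 1 and 2 were lower by 0.38 and 0.41 and litter 3 did not follow, at 0.04. The fitted difference was -0.25 ± 0.11 (adjusted p = 0.503). Col18a1, a collagen of epithelial and vascular basement membranes whose C-terminal fragment is endostatin, had the same split between litters on its brightest probe set, with -0.50, -0.36 and 0.19 and a mean of -0.22 ± 0.14. Its second probe set gave 1509.5, 1704 and 1180.4 in controls and 987, 1073 and 992 under strain. There all strained values were below all controls, at -0.50 ± 0.13 (adjusted p = 0.184). Col15a1, the related collagen of muscle and vessel basement membranes, was at -0.24 ± 0.18, with -0.14, -0.05 and -0.53 in pairs 1, 2 and 3, and at -0.09 without litter 3. Col8a2, a network-forming collagen, was at -0.11 ± 0.19.

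Among fibrillar collagens, both chains of type I collagen were measured by more than one probe set and gave different results. Col1a2 had 829.6, 1289.6 and 1233 in controls and 402, 903 and 989 under strain. Each litter was lower, by 1.02, 0.51 and 0.31 on the log2 scale, and the groups overlapped because litter 1 was low in both. The difference of -0.61 ± 0.15, or 0.65 times the control, was the largest of any tested member (adjusted p = 0.173), and it was -0.41 without litter 1. The second Col1a2 probe set gave -0.20 ± 0.14. Col1a1 had 3870, 4447 and 3302 in controls and 4650, 4617 and 3836 under strain, higher in each litter, with 0.18 ± 0.09 and a 95% interval from -0.02 to 0.37 (adjusted p = 0.597). Its second probe set gave -0.05 ± 0.11. The strain difference of Col1a2 minus that of Col1a1 was -1.28, -0.56 and -0.53 in pairs 1, 2 and 3 on the brightest probe sets. On the second probe set of each gene it was -0.23, -0.24 and 0.01, so the gap between the chains depends on which probe sets are compared.

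The Col1a2 upstream sequence (GRCr8) is shown because this member had the largest difference. Capitals mark letter matches to TATAAA and CCAAT, general promoter elements (CCAAT on the other strand, read as ATTGG). The TATAAA match lies nearer the far end of the window than the annotated start site, and its use as a TATA box was not tested.
Col1a2, chr4:33518307-33518556, plus strand: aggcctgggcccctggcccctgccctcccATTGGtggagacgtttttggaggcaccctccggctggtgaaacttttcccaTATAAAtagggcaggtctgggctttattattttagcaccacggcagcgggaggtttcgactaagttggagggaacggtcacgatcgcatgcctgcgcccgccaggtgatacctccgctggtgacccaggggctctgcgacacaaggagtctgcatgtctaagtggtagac
It held 1 match to TATAAA, found in 12.3% of protein-coding windows and in 4 of 40 members, and 1 to CCAAT, found in 35.5% of windows and in 9 of 40 members. It held no GGGCGG, unlike the Lama5 and Lamc1 windows.

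Col3a1, the fibrillar collagen of distensible tissues, and Col5a2, a chain of the type V collagen that nucleates fibrils, are neighbours on the chromosome. Col3a1 had 1051, 1401 and 1661 in controls and 610, 1268 and 1611 under strain. Col5a2 had 3225, 3710.1 and 3562 in controls and 1821, 3282 and 3505 under strain. Both were lower in each litter, but most of the difference came from litter 1: Col3a1 was at -0.77, -0.14 and -0.04 and Col5a2 at -0.82, -0.18 and -0.02 in pairs 1, 2 and 3. The means of -0.32 ± 0.15 and -0.34 ± 0.14 (adjusted p = 0.555 and 0.475) became -0.09 and -0.10 without litter 1. The second Col5a2 probe set had a similar mean of -0.35 ± 0.13, with -0.68, -0.33 and -0.06 in pairs 1, 2 and 3. Col5a1, the partner chain of type V collagen, went the other way on its brightest probe set. It had 1271, 1415 and 1449 in controls and 1475.5, 1698 and 1460.2 under strain, and all strained values were above all controls, which held for 1 of the 32 members and 2.99% of tested genes. Its difference was 0.16 ± 0.11 (adjusted p = 0.734), and the second probe set was at -0.16 ± 0.14. Col2a1, the cartilage collagen, was dim and uneven, with 144, 106 and 89.2 in controls and 137, 139 and 246 under strain (0.53 ± 0.28).

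Collagens that decorate or link fibrils included further members with lower values. Col6a3, a chain of beaded microfibrils around cells, had 624, 972 and 1104 in controls and 432, 676 and 970.3 under strain. It was lower by 0.51, 0.51 and 0.18 on the log2 scale, a mean of -0.40 ± 0.13 (adjusted p = 0.347). Col12a1, a fibril-associated collagen of tissues under tension, had 945, 1249 and 1584 in controls and 572, 1085 and 1386 under strain. It differed by -0.37 ± 0.14 (adjusted p = 0.418), of which litter 1 again held the larger share, at -0.71 against -0.20 and -0.19. Col6a1, the partner of Col6a3 in the microfibril, was dim and positive at 0.16 ± 0.20. The anchoring fibril gene Col7a1 was at -0.09 ± 0.21, Col9a2 at 0.11 ± 0.23 and Col26a1 at 0.01 ± 0.17.

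The 18 tested collagens had a median of -0.16, with -0.32, -0.11 and 0.03 in pairs 1, 2 and 3. In 12 of the 18 the most negative of the 3 differences was that of pair 1. The share of all tested genes with this trait was not counted. Medians over all tested genes were -0.018, -0.015 and 0.007 in pairs 1, 2 and 3, so pair 1 was lowest there too. The collagen median was -0.07 without litter 1, which leaves the second run day alone, and -0.27 without litter 3. In the same cultures the summed signal of 9 smooth muscle and myofibroblast markers was lower under strain in each litter, at 21242, 25565 and 21417 in controls and 15675, 23450 and 19485 under strain. Most of that sum was the signal of Tagln and Acta2. Over the 8 markers that were tested, the median difference was -0.91, -0.35 and -0.22 in pairs 1, 2 and 3. Of these 8, 4 were lower in all 3 pairs, beside 16.2% of all tested genes. The summed fibroblast markers, mostly under the filter, ran from 696 to 933 in controls and from 659 to 1012 under strain. Leukocyte markers summed to 3264, 3097 and 3864 in controls 1, 2 and 3 and to 2359, 2317 and 3974 in the strained cultures. The median difference of the tested leukocyte markers was -0.48, -0.35 and 0.16 in pairs 1, 2 and 3. The part of these other cells in the collagen values was not tested, and in bulk RNA fewer cells of a type and less RNA per cell cannot be told apart.

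**Figure D3:**
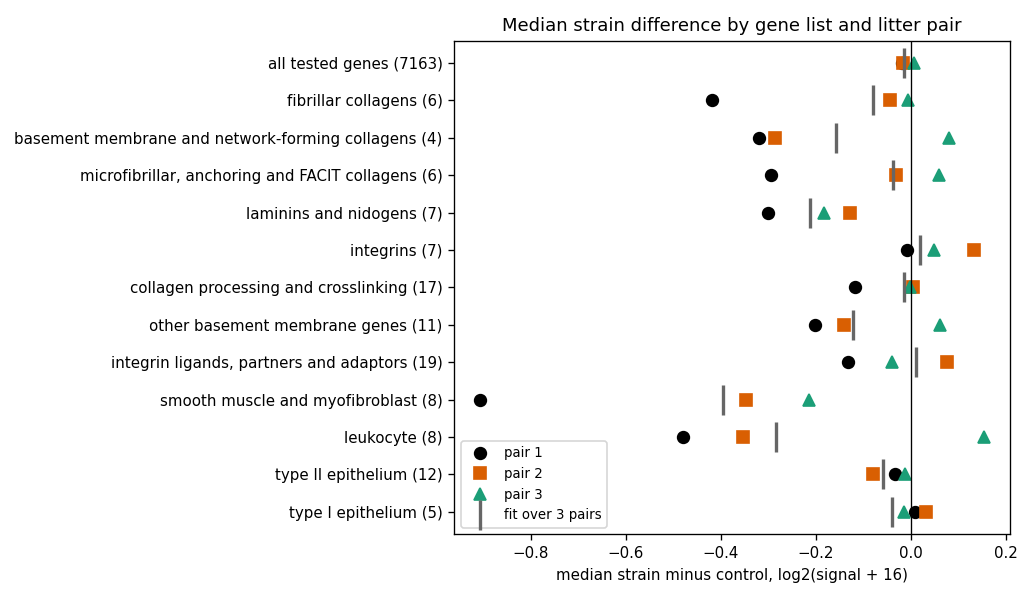
Median strain minus control difference in log2(signal + 16) (x axis) of gene lists (y axis, number of tested genes in brackets), in each litter pair (symbols) and from the fit over all pairs (grey bar). Laminins and nidogens are below 0 in all 3 pairs, and integrins lie between -0.01 and 0.13. Pair 1 has the lowest median in every list shown, all tested genes included, except type II and type I epithelium.

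Integrin subunits had no shared direction. Itgb1, the beta subunit common to most matrix receptors, had 2681, 2249 and 4891 in controls and 2715, 2757 and 4018 under strain. Both cultures of litter 3 were high, and the pair means spanned 0.83 on the log2 scale, while the strain difference was 0.01 ± 0.12 with a 95% interval from -0.25 to 0.26. The second Itgb1 probe set had the same litter pattern and gave -0.16 ± 0.15. Itga3, the alpha subunit of the main epithelial laminin receptor, had 3924, 4548 and 3634 in controls and 3968, 4560 and 4370.4 under strain. Its difference was 0.10 ± 0.09, with an interval from -0.11 to 0.30. Itgb4, the hemidesmosome subunit that binds laminin together with the Itga6 product, had 2622, 2785 and 1729.5 in controls and 2680.2, 3242 and 2098 under strain. It was higher in each litter at 0.03, 0.22 and 0.28, a mean of 0.18 ± 0.10 (adjusted p = 0.659), with litter 3 low in both groups.

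Itgb5, a subunit of vitronectin receptors, had 456, 622 and 612 in controls and 453, 684 and 583 under strain, a difference of 0.02 ± 0.14 with an interval from -0.28 to 0.32. The other tested alpha subunit genes were dim, with signals from 96.6 to 345 on single arrays, and their errors were wide. Itga6 was at -0.23 ± 0.24, with -0.16 ± 0.23 on its second probe set. Itga7, a laminin receptor subunit of muscle, was at 0.05 ± 0.26 with -0.78 in pair 1 and 0.88 in pair 2. Itgae, the subunit of intraepithelial lymphocytes, was at -0.11 ± 0.21. The median of the 7 tested integrins was 0.02, and -0.03 without litter 2. The genes for the collagen receptor subunit Itga1 and for Itga8, the platelet subunit Itga2b and the leukocyte subunits Itgad, Itgam and Itgb7 lay under the filter.

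Genes with more than one tested probe set show how far a value depends on the sequence that was probed. There were 10, and in 4 of them, Col1a1, Col4a1, Col5a1 and Itgb1, the probe sets differed in sign. In each of these 4 the brightest probe set was the positive one. The other 6 had negative values on both probe sets, namely Col1a2, Col5a2, Col18a1, Lamc1, Nid1 and Itga6. Counting by the second probe set where there was one, 13 of 32 members were lower in all 3 pairs and 2 were higher, the latter being Itga3 and Itgb4. The share of all tested genes was not counted by this rule. On brightest probe sets it was 16.2% lower and 14.3% higher.

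**Figure D4:**
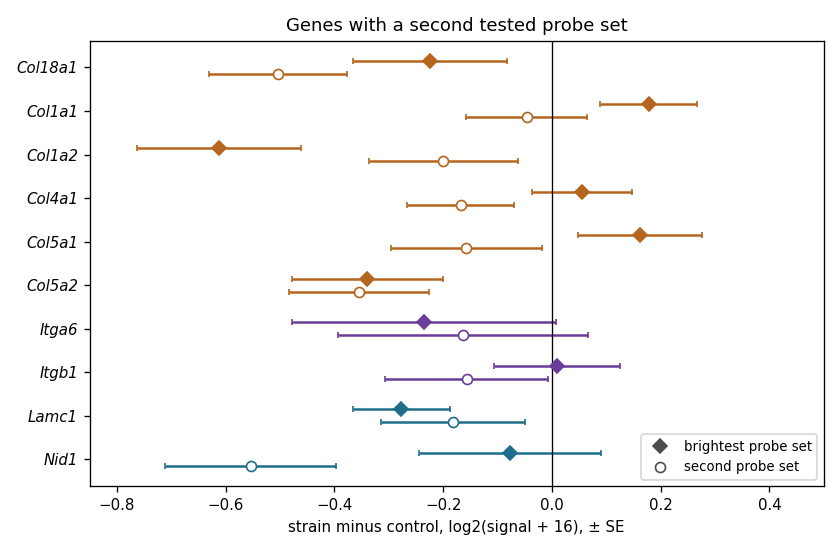
Strain minus control difference in log2(signal + 16) ± SE (x axis) of the brightest (filled diamond) and the second (open circle) tested probe set of 10 member genes (y axis). The probe sets of Col1a1, Col4a1, Col5a1 and Itgb1 lie on opposite sides of 0, and those of Col5a2 nearly coincide.

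For each member, the spread between litters was set beside the strain difference. A range over 3 means and a difference between group means are unlike measures, so the comparison does not rank litters against strain. The range of the 3 pair means exceeded the size of the strain difference in 28 of 32 members, a share of 87.5% that was close to the 88.6% of all tested genes. The exceptions were Lama3, Nid2, Col4a5 and Col2a1. The widest ranges on brightest probe sets were those of Col3a1, Col12a1 and Col6a3, at 1.01, 0.99 and 0.97 on the log2 scale, each with litter 1 lowest and litter 3 highest. Litter 1 was also the only one run on the first day, so litter and run day cannot be told apart there.

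The 20 members under the filter had signals between 2.8 and 210 on single arrays. They were Col4a4, Col5a3, Col6a2, Col8a1, Col9a1, Col10a1, Col11a1, Col11a2, Col14a1, Col19a1 and Col27a1, the laminin genes Lama1, Lama2 and Lama4, and the integrin genes already given. Of them, Lama4, Col5a3 and Itga2b were lower and Col11a1, Itgad and Itgb7 higher in all 3 pairs, at levels where no test was made. That is 3 of 20 in each direction, beside 16.2% and 14.3% of tested genes. The share among all genes under the filter was not counted. At the filter, Col9a2 lay just inside, with signals from 77.5 to 150 over the 6 arrays, and Lama4 just outside, with 61.4 to 210. Lamb3, Itgav and Itgb6 were not analysed here.

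Other genes of matrix assembly and adhesion are given from lists. Of 26 genes for collagen processing and crosslinking 17 were tested and 0 passed, with 3 lower and 2 higher in all pairs and a median of -0.01. The crosslinking oxidase Lox was at -0.39 ± 0.16, the prolyl hydroxylase subunit P4ha2 at -0.33 ± 0.19 and Crtap, a partner in prolyl 3-hydroxylation, at 0.33 ± 0.22. Of 19 other basement membrane genes 11 were tested and 0 passed, with 4 lower and 1 higher in all pairs and a median of -0.12. Ntn1, a netrin built like a laminin arm, was at -0.45 ± 0.12 (adjusted p = 0.209), the perlecan gene Hspg2 at -0.33 ± 0.13 and the peroxidase Pxdn, which crosslinks collagen IV, at -0.19 ± 0.09. Of 25 integrin ligands, partners and adaptors 19 were tested and 0 passed, with 4 lower and 3 higher in all pairs and a median of 0.01. Parva, which links integrins to actin through integrin-linked kinase, was at -0.53 ± 0.14 (adjusted p = 0.208), the talin gene Tln1 at -0.29 ± 0.12 and the adhesion protein gene Zyx at 0.23 ± 0.08. At an unadjusted p of 0.05 the counts lower and higher were 1 and 0, 3 and 0, and 3 and 2 in these lists, beside 4.73% and 4.84% of all tested genes. The shares of all tested genes lower and higher in all 3 pairs were 16.2% and 14.3%.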

How the data were processed

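RNA from 3 control and 3 strained cultures was hybridised to 1 Affymetrix rat E230A array each. The authors deposited intensities per probe set, for which the submitters' processing notes name MAS5 5.0. Labels state that RNA was purified on a column, while the text files describing each array run state that none was used.

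Signals were rescaled to a trimmed mean of 500 (2% trimmed at each end) and transformed as log2(signal + 16), which understates differences of dim probe sets. After 57 control probe sets were left out, the dimmest 40% of 15866 were dropped by mean over all arrays, leaving 9519. Symbols came from the platform annotation, which gave 1 symbol for 12783 probe sets, several for 312 and none for 2771. All 71 member probe sets matched a RefSeq gene ID with the same symbol.

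The fit was limma 3.58.1 in R 4.3.3 with litter pair and group as terms, a variance trend, and p-values were adjusted by Benjamini-Hochberg across the 9519 tested, with a threshold of 0.05. With 2 residual degrees of freedom of its own and 9 borrowed, each variance rests mostly on other probe sets. The design text gives a litter to each pair. Deviations of same-numbered arrays correlated at 0.51, 0.475 and 0.435 over probe sets, against -0.35 to -0.117 for other combinations. Deviations from a group's own mean cancel out, so the negative values follow in part from the positive ones. Both arrays of a pair were run on one day with chips of one lot, and arrays of different pairs never matched in both. These correlations therefore cannot tell a common litter from a common array run.

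Run day 1 held pair 1 alone and run day 2 the others, and pair 3 used a chip lot of its own. In all 3 pairs the strained array was scanned after its control and on another fluidics module, so module and scan order cannot be told apart from strain.

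The text names up to 4 tested members per subfamily with the smallest p and up to 2 others with the highest signal, a fixed set, members whose probe sets differ in sign, and 3 genes with the smallest p per pathway list. This rule took in all 32 tested members, and members under the filter are given by name. Marker genes, values of Lama4 and Loxl1 were added outside it. Members, lists and rules were chosen with earlier results of these data known. Scripts were tested on simulated data.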

Additional observations from a re-analysis of the deposited data

How the results depend on the processing

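The count of called members was 0 in every setting run, namely pseudocounts of 1 and 64, no filter or a 20% filter on dim probe sets, quantile normalization, no variance trend, no replicate block, run day as the block, each pair left out, the mean of a gene's probe sets and, added after seeing the data, the second probe set. Over all probe sets the count was 31. It was 5 with no filter, 1 with no variance trend, 1 with run day as the blocking term and 0 with no replicate block (200 at an unadjusted p of 0.05). With a pair left out it ran from 9 to 52. Members at an unadjusted p of 0.05, in either direction, numbered 8. They numbered 3 with no variance trend, 4 with run day as the block and 0 with no replicate block. Without litter 1, 2 or 3 they numbered 6, 5 and 10, and in the other settings 7 to 9. Over all probe sets that count was 901, and 761, 395 and 200 with no trend, run day and no block. The cause of these changes was not tested. Members higher in all pairs numbered 4, but 7 of 52 with no filter, 2 with the mean of probe sets, 2 with the second probe set, and 4 to 10 with 2 pairs to satisfy. Members lower in all pairs numbered 11, and 12 to 18 with 2 pairs to satisfy. Fewer pairs are easier to satisfy, for any gene. The share of all tested genes was counted in the main setting only, at 16.2% lower and 14.3% higher, so these other counts have no background beside them. The medians of the 3 families moved by less than their SD between pairs in all settings run, though that of integrins changed sign without litter 2. Among the 32 named members, 23 kept their sign in all settings other than the second probe set, with which Col1a1 turned to -0.046, Col5a1 to -0.16, Col4a1 to -0.17 and Itgb1 to -0.16. Itgb1 turned to -0.0049 with quantile normalization and to -0.074 with the mean of probe sets, where Col4a1 turned to -0.056. With a pair left out, Itgb1 ran from -0.13 to 0.15, Itgb5 from -0.037 to 0.063, Itga6 from -0.47 to 0.071, Itga7 from -0.37 to 0.46, Nid1 from -0.28 to 0.10, Col7a1 from -0.23 to 0.10, Col8a2 from -0.34 to 0.069 and Col26a1 from -0.055 to 0.060. Detection calls were not used here, so distance from background was judged only by mean signal.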

Other observations

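Loxl1, a lysyl oxidase of elastic fibre assembly on the crosslinking list, stood out after its values were seen. Its signals were 52, 496 and 373 in controls and 426, 395 and 49 under strain, so that the pair differences were 2.70, -0.32 and -2.58 and the mean was -0.06 ± 0.68. The control of litter 1 and the strained culture of litter 3 were the low ones.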
